A study of Mus musculus with 8 samples.

Results

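The genes described are 36 regulators and structural parts of mitosis and the spindle, listed by symbol with earlier results of these data known, out of 21517 genes listed in either of 2 tables of mouse preimplantation embryo RNA. Each symbol matched 1 Ensembl row in both tables, and all 36 reached the mean normalized abundance of 10 that was asked of a row, so no member was lost. Embryos with knockdown (KD) of Smarca5, the nucleosome-sliding ATPase also called SNF2H, were compared with embryos labelled NC at the morula stage, when the cells have compacted into a ball, and at the blastocyst stage, when an inner cell mass and an outer trophectoderm surround a cavity. Each of the 4 groups had 2 libraries of polyadenylated RNA, and each library pooled 20 embryos. The submitters name embryonic days 3.75 and 4.25 without tying a stage to a day, and the labels do not spell out NC, the strain or the agent of the knockdown. No label ties a library to its own litter or day, so a p-value here reflects variation between libraries that could be technical.

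Mitosis is driven by CDK1 bound to cyclins A and B, which starts chromosome condensation, breakdown of the nuclear envelope and building of the spindle. The kinetochore on each centromere captures spindle microtubules, and the spindle checkpoint holds back the anaphase-promoting complex (APC/C), a ubiquitin ligase, until every kinetochore is attached. The APC/C then marks securin and B cyclins for destruction, separase opens cohesin, and the central spindle and a contractile ring divide the cell. Transcription of these genes peaks late in the cell cycle, under the MuvB complex with B-MYB and FOXM1 and the factor NF-Y. Preimplantation embryos divide without growth between divisions, start from a store of oocyte mRNA for many of these genes, and in the mouse build their early spindles without centrioles.

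Smarca5 was low in each of the 4 KD libraries. Smarca5 had a normalized abundance of 9678 and 9760 in NC, against 501 and 470 in KD libraries of morulae (log2 fold change -4.32, 95% interval -4.62 to -4.02, limma adjusted p = 0.000188) and of 7000 and 8283 in NC, against 906 and 855 in KD libraries of blastocysts (log2 fold change -3.11, 95% interval -3.39 to -2.84, limma adjusted p = 0.000593). Both calls need the mean-variance trend: without it the limma adjusted p was 0.111 in morulae and 0.103 in blastocysts. The lineage markers Pou5f1, Nanog, Sox2, Cdx2, Gata3, Tead4, Krt8, Krt18 and Gata6 were present in all 8 libraries. Sox17 was 16.1 and 0 in NC and 186 and 72.7 in KD in morulae, above NC without passing (log2 fold change 4.83, limma adjusted p = 0.377). In blastocysts Sox17 was 704 and 1353 in NC and 892 and 1915 in KD, with overlap. The summed level of the 10 embryo markers was 65906 to 73724 in morulae and 125230 to 148167 in blastocysts. Estimated depth was 14000000 to 23300000 reads per library. In any library blood markers summed to at most 190.4, oocyte markers to at most 177.4, cumulus, granulosa and stromal markers to at most 556 and oviduct and uterine epithelial markers to at most 843, and of the 14 cumulus, granulosa and stromal genes Fshr, Cyp19a1, Has2 and Ptx3 were not listed. Others of that list were present and did not move alike. Amhr2 was 279 and 325 in NC and 204 and 243 in KD in morulae, with KD below NC. In blastocysts Amhr2 was 158 and 85.1 in NC and 101 and 72.5 in KD, with overlap. Foxl2 was 38.9 and 28.9 in NC and 109 and 77.1 in KD in morulae (limma adjusted p = 0.402), and 16.3 and 25.1 in NC and 63.9 and 42.6 in KD in blastocysts (limma adjusted p = 0.24). Foxl2 was above NC at both stages without passing, as 20.7% of genes were above NC in morulae and 24.6% in blastocysts. In pooled embryos, fewer dividing cells and less RNA per dividing cell cannot be told apart.

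Many of the members share sequence features that the choice of genes did not use, and these features are shown before the values. NF-Y binds the letters CCAAT, and the MuvB complex binds the cell cycle genes homology region (CHR), whose letters are TTTGAA or, in a variant, TTCGAA. Both strands were searched in the RefSeq promoter windows of GRCm38.p6, each running from 250 bases before to 50 bases after an annotated start. Windows were found for 30 of the 36 members (33 windows), and Ccna2, Aurkb, Incenp, Spc24, Tpx2 and Kif20a had no entry. TTTGAA stood in the window of 22 of 30 members (73.3%), against 20.2% of the 27025 genes with a window and 14.3% of the 10417 tested genes with one. CCAAT stood in 22 of 30 members (73.3%), against 41.1% and 43.1%. Both stood in the same window for 19 of 30 (63.3%), against 7.97% and 5.99%. Matches of the NF-Y box and the CHR overlapped in Cdca8 alone among the members. TTCGAA was the only form in Bub1 and also occurred in Bub1b and Top2a, 3 of 30 members (10%) against 1.8% of all genes. The windows of Birc5, Mad2l1, Nuf2, Nusap1 and Pttg1 held none of these letters.

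The matches were also placed alike. A TTTGAA match began between 60 bases upstream of the start and the window's end in 21 of 30 members (70%), against 6.36% of all genes, while the stretch from 150 to 60 bases upstream held one in 3 members (10%) against 7.23%. For CCAAT the same stretches held a match in 18 members (60%, against 18%) and 14 members (46.7%, against 19.4%). The other 138 mitosis genes examined below had TTTGAA in 35.3% and CCAAT in 52.6% of the 116 with a window. A match to these letters is a description and not a bound site, and no binding was measured here.

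**Figure D1:**
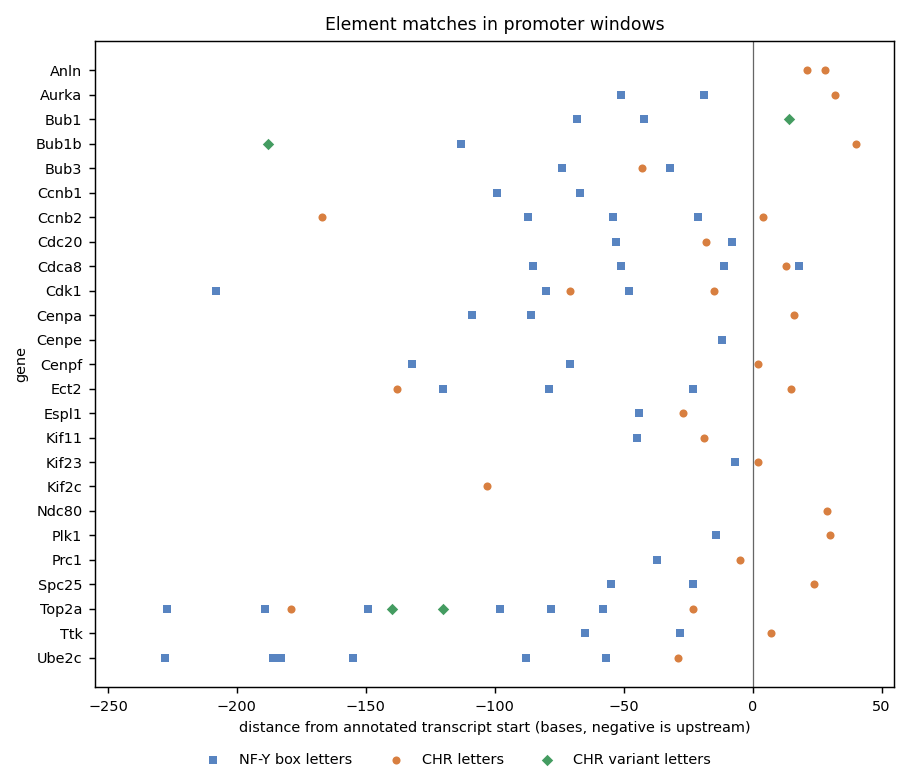
Position of element matches in the promoter windows of the members that hold at least 1 match, with 1 window per gene: the horizontal axis is the distance in bases of the first base of a match from the annotated transcript start, squares are NF-Y box letters, circles are CHR letters and diamonds are the CHR variant. Circles gather around the start (21 of 30 members have one from 60 bases upstream onward), and squares lie mostly upstream of them.

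The windows of 6 members are printed because these genes had, among members with a window, the 3 smallest unadjusted p-values of KD against NC in blastocysts (Ube2c, Aurka, Cenpa) and in morulae (Anln, Pttg1, Cenpf). Capitals mark the NF-Y box and the CHR on either strand, so that ATTGG is the NF-Y box and TTCAAA the CHR read on the other strand.
Ube2c, chr2:164769679-164769978, plus strand: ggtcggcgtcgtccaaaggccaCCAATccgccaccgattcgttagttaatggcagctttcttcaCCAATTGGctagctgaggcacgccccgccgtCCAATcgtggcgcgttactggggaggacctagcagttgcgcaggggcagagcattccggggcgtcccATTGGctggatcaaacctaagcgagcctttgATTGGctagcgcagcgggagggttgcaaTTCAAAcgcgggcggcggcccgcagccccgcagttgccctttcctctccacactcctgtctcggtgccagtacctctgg
Aurka, chr2:172370521-172370820, minus strand: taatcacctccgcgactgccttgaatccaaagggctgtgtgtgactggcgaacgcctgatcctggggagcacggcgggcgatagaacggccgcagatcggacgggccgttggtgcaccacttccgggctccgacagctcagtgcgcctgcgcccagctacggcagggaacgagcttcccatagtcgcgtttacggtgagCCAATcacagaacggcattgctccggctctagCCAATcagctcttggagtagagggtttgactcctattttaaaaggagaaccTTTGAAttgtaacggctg
Cenpa, chr5:30666636-30666935, plus strand: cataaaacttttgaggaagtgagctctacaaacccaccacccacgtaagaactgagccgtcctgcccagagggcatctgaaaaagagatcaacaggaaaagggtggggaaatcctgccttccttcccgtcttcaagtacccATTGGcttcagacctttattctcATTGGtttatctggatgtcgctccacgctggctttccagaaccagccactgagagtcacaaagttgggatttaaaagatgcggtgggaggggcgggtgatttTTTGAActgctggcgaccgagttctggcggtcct
Anln, chr9:22389157-22389456, minus strand: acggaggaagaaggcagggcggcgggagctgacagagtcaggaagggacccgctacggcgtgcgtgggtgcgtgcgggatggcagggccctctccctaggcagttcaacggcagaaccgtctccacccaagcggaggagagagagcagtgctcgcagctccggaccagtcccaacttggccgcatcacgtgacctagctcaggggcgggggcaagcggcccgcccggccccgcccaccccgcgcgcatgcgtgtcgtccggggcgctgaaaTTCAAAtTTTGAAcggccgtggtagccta
Pttg1, chr11:43425932-43426231, minus strand: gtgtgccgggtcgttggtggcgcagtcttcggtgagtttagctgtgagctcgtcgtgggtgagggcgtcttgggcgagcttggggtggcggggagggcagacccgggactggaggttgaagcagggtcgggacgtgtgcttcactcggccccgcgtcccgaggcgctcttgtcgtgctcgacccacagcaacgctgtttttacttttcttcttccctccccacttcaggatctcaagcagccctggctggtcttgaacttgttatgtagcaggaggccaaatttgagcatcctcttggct
Cenpf, chr1:189688037-189688336, minus strand: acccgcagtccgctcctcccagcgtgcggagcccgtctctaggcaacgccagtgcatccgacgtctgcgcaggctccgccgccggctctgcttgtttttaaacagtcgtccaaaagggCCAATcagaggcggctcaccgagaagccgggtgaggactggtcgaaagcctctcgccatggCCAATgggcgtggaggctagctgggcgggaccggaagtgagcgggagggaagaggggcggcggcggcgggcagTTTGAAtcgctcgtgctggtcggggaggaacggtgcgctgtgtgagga
Ube2c holds 6 CCAAT matches, 2 of which overlap as a palindrome, and a TTTGAA match 29 bases upstream of the start. In Aurka, Cenpa and Cenpf 2 CCAAT matches each lie upstream of a single TTTGAA match, which begins 32, 16 and 2 bases after the start. Anln has no CCAAT and holds 2 TTTGAA matches 21 and 28 bases after the start, facing in opposite directions. Pttg1 has none of the 3 elements in its window. That window lies wholly inside the gene as GENCODE places it (43420250 to 43426251), so bases upstream of the GENCODE start were not searched. The windows of Kif2c and Cdca8 also lie inside their GENCODE genes.

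The mitosis genes were abundant at both stages. Averaged over the 4 libraries of a table, 35 of the 36 had a mean normalized abundance above the median of all tested genes (357.5 in morulae, 436.5 in blastocysts), and Nuf2 was the exception (229.3 and 394.5). Cdc20 was the highest, at 6954 and 7651. Normalized abundance is scaled within a table and grows with transcript length, so levels of different genes are given with each library's sum scaled to 1000000 and per kilobase of merged exons (mean of 2 libraries). On this scale Cdc20, the activator of the APC/C, led in NC morulae at 215, followed by the kinase Aurka at 104, the APC/C ubiquitin-conjugating enzyme Ube2c at 95.6, Ccnb1 at 95.4 and Plk1 at 63.4. The lowest were Ttk at 6.13, the large kinetochore protein Cenpf at 3.04 and Nuf2 at 1.98. Members of 1 complex differed: of the NDC80 complex, Spc24 was at 14.8, Spc25 at 8.46, Ndc80 at 7 and Nuf2 at 1.98. Annotated exons that embryos do not use would lower such a value, so the order holds for the annotation used.

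**Figure D2:**
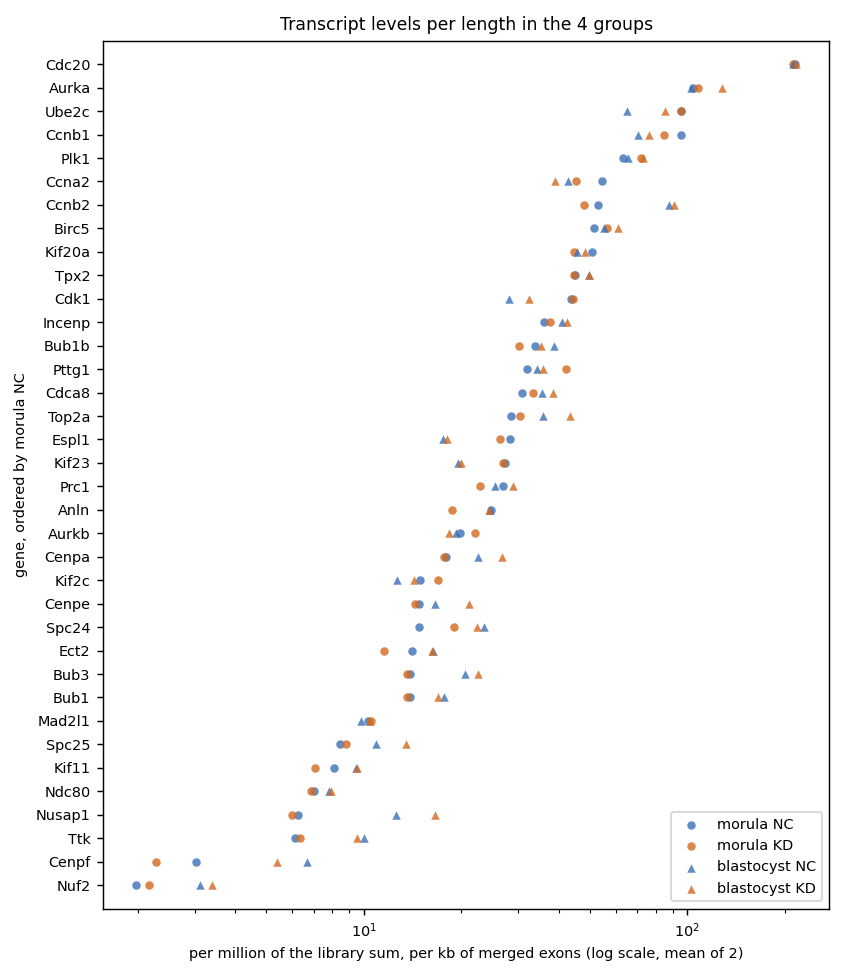
Level of each member with the library sum scaled to 1000000, per kb of merged exons (logarithmic axis), as the mean of 2 libraries in each of 4 groups; circles are morulae, triangles blastocysts, blue NC and orange KD. Levels run from 1.98 for Nuf2 to 215 for Cdc20 in NC morulae, and for most genes the 4 groups lie close together.

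Levels of the 2 stages are set side by side only as shares of each library's sum, scaled to 1000000, because the tables were scaled separately, and no test was made. For 11 of 36 members all 4 blastocyst libraries lay above all 4 morula libraries, against 22.9% of the 12875 genes tested in both tables, and for 4 members they lay below, against 16% of genes. Higher in blastocysts were Ccnb2, Cdca8, Bub3, Ttk, Cenpa, Cenpf, Nuf2, Spc24, Spc25, Nusap1 and Ect2. Cenpf was at 46.9 in NC morulae and 103 in NC blastocysts, and Nusap1, a microtubule-bundling protein, was at 25.3 and 51.2. Lower in blastocysts were Cdk1 (215 and 138 in NC), Ccna2, Kif23 and the separase gene Espl1 (247 and 154). Of the B cyclins, Ccnb2 was at 81.2 and 135 in NC morulae and blastocysts, and Ccnb1 at 402 and 297, but the libraries of the 2 stages overlapped for Ccnb1.

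Whether loss of Smarca5 changes the mitotic transcripts was asked by comparing KD with NC within each table. None of the 36 members passed at either stage (limma on log2(value + 1), adjusted over all tested genes at 0.05), where 0.00746% of 13404 genes passed in morulae and 0.0879% of 13651 in blastocysts. In blastocysts 0.0366% of tested genes passed as higher in KD and 0.0513% as lower. At an unadjusted p under 0.05 the members numbered 3 in morulae, or 8.33% against 10.4% of all genes. Pttg1 was the 1 higher there, where 5.16% of genes were higher, and Anln and Ccna2 were lower, where 5.22% were. In blastocysts there were again 3, or 8.33% against 17.6%, and Ube2c, Aurka and Cenpa were all higher, where 8.83% of genes were higher and 8.73% lower. A missed threshold does not show equal levels, so the 95% interval of each fold change is given. It lay within a 2-fold change either way for all 36 members in morulae, against 55% of tested genes, and for all 36 in blastocysts, against 61.7%. Within a 1.5-fold change it lay for 27 members in morulae (25.5% of genes) and 30 in blastocysts (37% of genes). These are single-gene intervals, not widened for their number. The fit lets the error depend on abundance, and 35 of 36 members lay above the median abundance of tested genes. Genes of like abundance were not compared. A fit with the replicate number as a block called Anln in morulae and Ube2c, Aurka, Cenpe and Top2a in blastocysts. It called 892 of all genes in morulae and 1208 in blastocysts, and the labels do not say that a number pairs libraries.

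The morula values scattered around 0. The median log2 fold change of the 36 was -0.031, against -0.0067 over all tested genes, with 15 above 0 and 21 below (49.2% of genes lay above). With quantile normalization 19 lay above 0 and the median was 0.0045. KD libraries did not overlap NC for 12 members, 33.3% against 41.9% of genes, with 5 above NC (20.7% of genes) and 7 below (21.2%). In blastocysts 28 of 36 were above 0, against 50.3% of genes, and the median was 0.087 against 0.0017. Several lineage markers differed in the same libraries, none passed, and their part was not tested. Of the trophectoderm markers in blastocysts, Cdx2 (log2 fold change 0.20), Gata3 (0.33), Tead4 (0.16), Krt8 (0.25) and Krt18 (0.29) had both KD values above NC. Of the inner cell mass markers Sox2 (-0.49) and Pou5f1 (-0.12) had both below, while Nanog (-0.0063) overlapped. Limma adjusted p of these 8 markers ran from 0.141 for Gata3 to 0.985 for Nanog. KD and NC were apart for 15 members, 41.7% against 49.5% of genes. KD lay wholly above NC for 13 members, 36.1% against 24.6% of genes, and wholly below for 2 members, Ccna2 and Bub1b, or 5.56% against 24.9%.

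**Figure D3:**
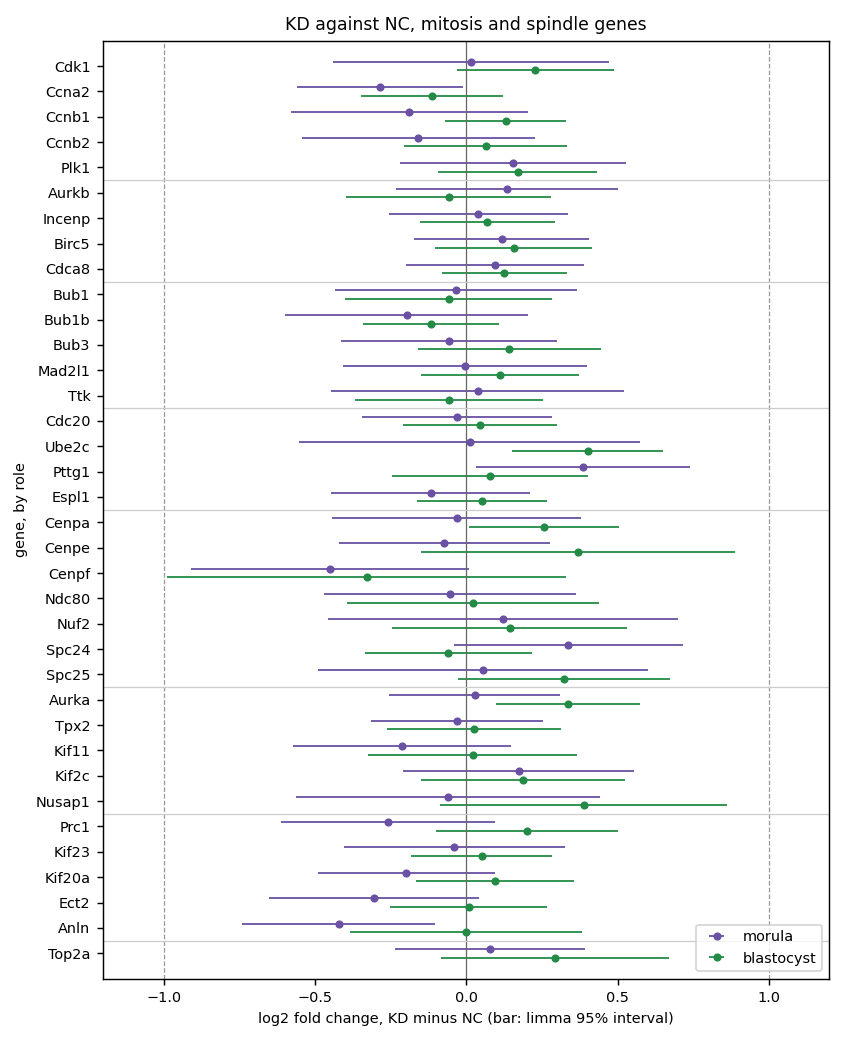
Log2 fold change of KD against NC for each member, in morulae (purple) and blastocysts (green), with limma's 95% interval as a bar; dashed lines mark a 2-fold change either way and grey lines separate the 8 role groups. The bars of all 36 members stay within the dashed lines, and the widest is that of Cenpf in blastocysts.

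The blastocyst values moved with KD replicate 2. This library held the highest of the 4 values for 26 of 36 members (72.2%, against 24.7% of all tested genes), while KD replicate 1 held the highest for 2 (5.56% against 24.7%) and the lowest for 12 (33.3% against 24.3%). The lowest value fell most often in NC replicate 1, for 15 members (41.7% against 24.9% of genes). That library also had the lowest estimated depth of any, 14000000 reads, and the part of depth was not tested. KD replicate 2 exceeded KD replicate 1 for 30 members (83.3%, against 50% of genes), by a median of 0.21 in log2. Without KD replicate 2 the median log2 fold change of the members was 0.044 with 21 of 36 above 0 (50% of genes). Without KD replicate 1 it was 0.17 with 31 above 0 (49.9% of genes), and without NC replicate 1 it was 0.072 with 23 above 0 (49.7% of genes). In KD replicate 2 the embryo markers summed to 148167, against 125230 to 133736 in the other blastocyst libraries, and Krt8 was 49475 against 38809 to 43300. Its cumulus, granulosa and stromal markers summed to 555.9, against 333.8 to 457.3, with Inhbb at 291 against 67.4 to 165, but Amhr2, at 72.5, was the lowest of the 4 libraries and Foxl2, at 42.6, was below KD replicate 1. The same library had its oviduct and uterine epithelial markers at a sum of 843.4, against 699.9 to 724.4, and an estimated depth of 18500000 reads, inside the range. Most of that sum was Wfdc2, at 753 against 650 to 699 in the other blastocyst libraries. Muc1 was 74.1 against 17.7 to 35.6, Pax8 was 0, and Foxj1 and Ltf were not listed. Blood markers in blastocysts summed to 19.8 and 190.4 in NC replicates 1 and 2, and to 28.7 and 111.4 in KD replicates 1 and 2. Replicate 2 was thus the higher in both groups. The part of these features in the members' values was not tested. In NC blastocysts replicate 2 exceeded replicate 1 for 26 members (72.2%, against 50.2% of genes), by a median of 0.060. In morulae no library held the highest value for more than 14 members (NC replicate 2, 38.9% against 25.8% of genes).

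**Figure D4:**
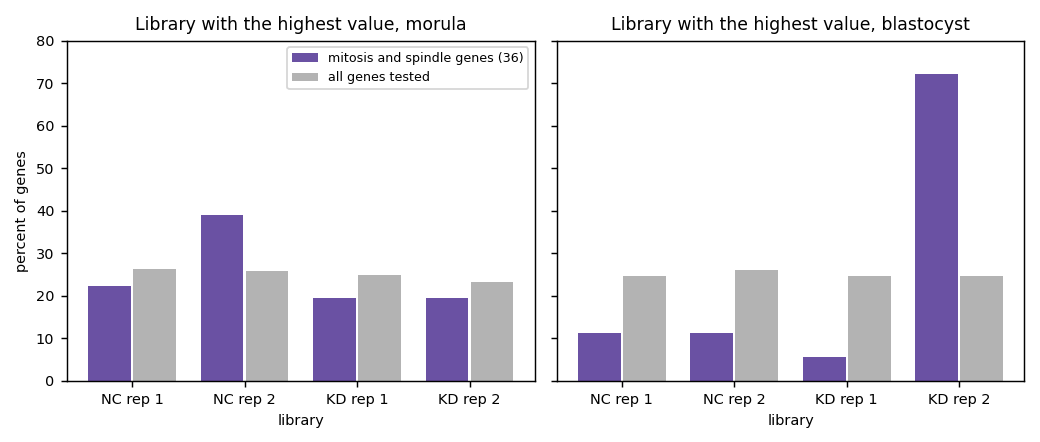
Percent of genes whose highest of 4 values falls in each library, for the 36 members (purple) and for all tested genes (grey), by stage. In blastocysts KD replicate 2 holds the highest value for 72.2% of the members and 24.7% of all genes.

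Among the kinases and cyclins that start mitosis, none passed. Cdk1, the catalytic subunit, was 2481 and 2757 in NC, against 2897 and 3241 in KD libraries of blastocysts, so that both KD values lay above NC (log2 fold change 0.23, 95% interval -0.031 to 0.49, limma adjusted p = 0.335). In morulae it was 3172 and 4405 in NC and 3426 and 4164 in KD, where the replicates of a group differed more than the groups did (log2 fold change 0.015, 95% interval -0.44 to 0.47, limma adjusted p = 0.987). Ccna2, the cyclin of S phase and mitotic entry, was 3840 and 3979 in NC, against 3231 and 3182 in KD libraries of morulae (log2 fold change -0.29, 95% interval -0.56 to -0.010, limma adjusted p = 0.474). Both KD libraries lay below NC there, and again in blastocysts at 3314 and 3293 in NC and 2885 and 3230 in KD (log2 fold change -0.11, 95% interval -0.35 to 0.12). Of its merged exon bases, 12.5% are shared with Exosc9 on the opposite strand. The mitotic cyclin Ccnb1 was 6166 and 7978 in NC and 5636 and 6724 in KD in morulae and 5634 and 5625 in NC and 5966 and 6363 in KD in blastocysts, where NC replicates were nearly equal and KD lay above (log2 fold change 0.13, 95% interval -0.069 to 0.33). Ccnb2 had log2 fold changes of -0.16 and 0.064, with overlapping libraries at both stages. Plk1, which acts from entry to cytokinesis, was 2302 and 2594 in NC and 2442 and 3034 in KD in morulae and 2662 and 2791 in NC and 2837 and 3311 in KD in blastocysts (log2 fold changes 0.16 and 0.17).

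The chromosomal passenger complex corrects faulty attachments and later directs cytokinesis. Its 4 genes lay above 0 in morulae at a median of 0.11 in log2. Of these, 3 had both KD values above NC, where 20.7% of all genes did. Aurkb, the kinase, was 985 and 1061 in NC and 1185 and 1062 in KD in morulae, so that the nearest libraries of the groups almost touched, and 1040 and 1110 in NC and 933 and 1140 in KD in blastocysts, where groups overlapped. Birc5 (survivin) was 3185 and 2936 in NC and 3291 and 3341 in KD in morulae and 3878 and 3270 in NC and 3981 and 3960 in KD in blastocysts, above NC each time (log2 fold changes 0.12 and 0.16). Cdca8 (borealin) was 2867 and 2736 in NC and 3105 and 2883 in KD and then 3507 and 3492 in NC and 3793 and 3844 in KD, also above NC at both stages (blastocyst 95% interval -0.080 to 0.33). The scaffold Incenp was 2687 and 2780 in NC and 2930 and 2696 in KD in morulae and 3243 and 3469 in NC and 3417 and 3627 in KD in blastocysts, with overlap at each. All of these differences were under 1.5-fold, and adjusted p was between 0.49 and 0.866 in blastocysts.

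The spindle checkpoint genes Bub1, Bub1b, Bub3, Mad2l1 and Ttk had median log2 fold changes of -0.035 in morulae and -0.057 in blastocysts. With quantile normalization the morula values of Bub1 and Mad2l1 lay above 0. Bub1b (BUBR1), part of the inhibitor of CDC20, was 2415 and 2656 in NC, against 1930 and 2528 in KD libraries of morulae, where KD replicate 1 was the lowest and the groups overlapped (log2 fold change -0.20, 95% interval -0.60 to 0.20, limma adjusted p = 0.733). In blastocysts it was 3169 and 3110 in NC and 3010 and 2788 in KD, with both KD values below NC (log2 fold change -0.12, 95% interval -0.34 to 0.11, limma adjusted p = 0.566). Mad2l1, another part of that inhibitor, was 1531 and 1584 in NC and 1607 and 1759 in KD in blastocysts. KD lay above NC there (log2 fold change 0.11). In morulae Mad2l1 was 1434 and 1611 in NC and 1352 and 1699 in KD. The kinase Ttk (MPS1), which starts checkpoint signalling, was 584 and 473 in NC and 501 and 581 in KD in morulae and 891 and 975 in NC and 858 and 935 in KD in blastocysts. Bub1 and Bub3, which recruit BUBR1 to kinetochores, overlapped at both stages. Bub3 was at 3383 in KD blastocyst replicate 2 against 2697 to 2757 in the other 3 blastocyst libraries.

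Anaphase control held the member with the smallest unadjusted p in blastocysts. Ube2c, which starts ubiquitin chains on APC/C substrates, was 3284 and 3130 in NC, against 3942 and 4549 in KD libraries of blastocysts, or 3207 ± 109 in NC and 4246 ± 429 in KD (SD, n = 2 each). Each KD library lay above each NC library (log2 fold change 0.40, 95% interval 0.15 to 0.65, limma adjusted p = 0.143, unadjusted p = 0.0069), and the 95% interval lay above 0 without passing over all genes. In morulae the same gene was 3376 and 5378 in NC and 3841 and 4797 in KD, and the log2 gap between its NC replicates, 0.67, was the widest of any member (log2 fold change 0.011, 95% interval -0.55 to 0.57, limma adjusted p = 0.992). Of its merged exon bases 22.8% overlap Tnnc2 on the opposite strand, a gene not listed in either table. Pttg1 (securin), the inhibitor of separase, was 1192 and 1044 in NC, against 1461 and 1456 in KD libraries of morulae, or 1118 ± 104 in NC and 1458 ± 3.81 in KD (SD, n = 2 each), with KD above NC (log2 fold change 0.39, 95% interval 0.033 to 0.74, limma adjusted p = 0.462). In blastocysts it was 1169 and 1438 in NC and 1393 and 1346 in KD with overlap (log2 fold change 0.079). Espl1 (separase) was 3998 and 4676 in NC and 3744 and 4239 in KD in morulae and 2880 and 2959 in NC and 3009 and 3044 in KD in blastocysts, where its 95% interval was -0.16 to 0.27. Cdc20 had log2 fold changes of -0.031 and 0.046, with overlap at both stages.

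Of the 7 centromere and outer kinetochore genes, the centromeric histone Cenpa was 2471 and 2542 in NC, against 2810 and 3188 in KD libraries of blastocysts, with KD above NC (log2 fold change 0.26, 95% interval 0.0072 to 0.50, limma adjusted p = 0.276), and 1589 and 2109 in NC and 1827 and 1754 in KD in morulae (log2 fold change -0.032). Cenpf, a large kinetochore and nuclear matrix protein, was 805 and 841 in NC, against 686 and 529 in KD libraries of morulae, both KD values below NC (log2 fold change -0.45, 95% interval -0.91 to 0.0099, limma adjusted p = 0.491). Its blastocyst values were 1644 and 2256 in NC and 1151 and 2041 in KD, and the log2 gap of 0.83 between the KD replicates was the widest of any member at that stage. Cenpe, the kinetochore motor that carries chromosomes to the metaphase plate, was 2192 and 3232 in NC and 2928 and 4039 in KD in blastocysts, with replicate 2 the higher in each group (log2 fold change 0.37, 95% interval -0.15 to 0.89, limma adjusted p = 0.429). In morulae Cenpe had a log2 fold change of -0.072 (95% interval -0.42 to 0.28).

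The 4 subunits of the NDC80 complex, the main microtubule attachment of the kinetochore, did not share a pattern. Spc24 was 680 and 655 in NC, against 841 and 846 in KD libraries of morulae, KD above NC (log2 fold change 0.34, 95% interval -0.041 to 0.71, limma adjusted p = 0.531), and 1179 and 1119 in NC and 1120 and 1084 in KD in blastocysts (log2 fold change -0.060, 95% interval -0.34 to 0.22, limma adjusted p = 0.829). Its partner Spc25 was 656 and 658 in NC, against 752 and 899 in KD libraries of blastocysts, KD above NC (log2 fold change 0.32, 95% interval -0.028 to 0.67, limma adjusted p = 0.316), and 546 and 398 in NC and 519 and 452 in KD in morulae, with overlap. Ndc80 itself had log2 fold changes of -0.054 and 0.022. Nuf2 was 239 and 201 in NC and 247 and 231 in KD in morulae and 382 and 367 in NC and 409 and 419 in KD in blastocysts (log2 fold changes 0.12 and 0.14).

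**Figure D5:**
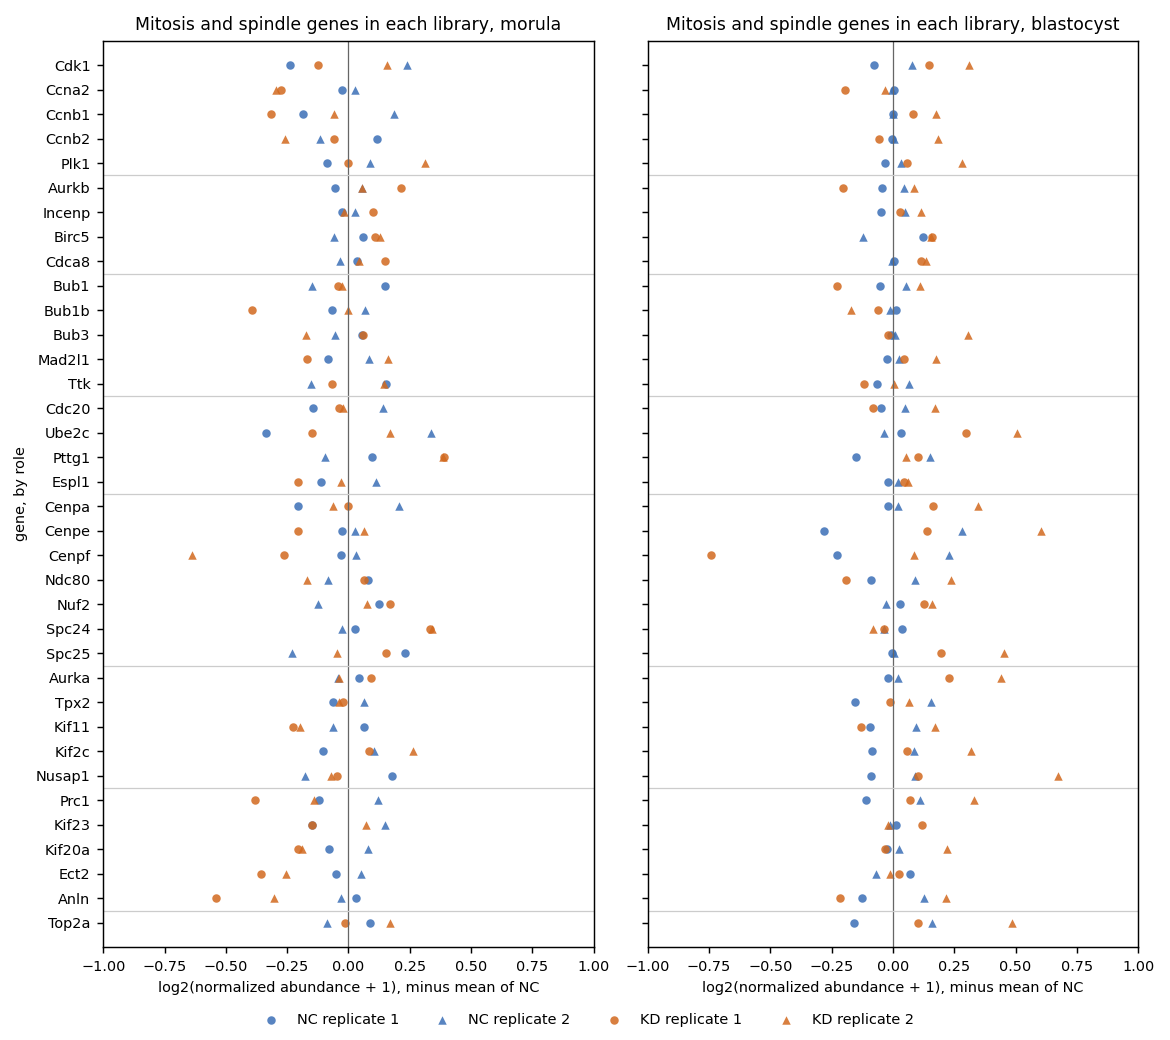
Value of each member in each library as log2(normalized abundance + 1) minus the mean of the 2 NC libraries, for morulae (left) and blastocysts (right); colour gives the group, circles are replicate 1 and triangles replicate 2. Orange triangles, KD replicate 2, lie furthest right for 26 of 36 members in blastocysts. In morulae both orange points lie left of the blue ones for 7 members and right of them for 5. The 7 are Anln, Ect2, Prc1, Kif20a, Ccna2, Cenpf and Kif11.

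Among the spindle motors and assembly factors, Aurka, the kinase of spindle poles, was 4846 and 4987 in NC, against 5764 and 6677 in KD libraries of blastocysts, or 4916 ± 99.6 in NC and 6220 ± 645 in KD (SD, n = 2 each). The groups did not overlap and the 95% interval lay above 0 (log2 fold change 0.34, 95% interval 0.10 to 0.57, limma adjusted p = 0.173, unadjusted p = 0.013). In morulae Aurka was 4763 and 4488 in NC and 4934 and 4505 in KD, with overlap (log2 fold change 0.028, 95% interval -0.25 to 0.31, limma adjusted p = 0.96). Tpx2, which binds and activates AURKA on microtubules, was 3924 and 4860 in NC and 4331 and 4567 in KD in blastocysts, with overlap (log2 fold change 0.026, 95% interval -0.26 to 0.31, limma adjusted p = 0.937). The motor Kif11 (Eg5), which pushes the spindle poles apart, was 1107 and 1012 in NC and 905 and 923 in KD in morulae, KD below NC (log2 fold change -0.21, 95% interval -0.57 to 0.15, limma adjusted p = 0.679), and overlapped in blastocysts (log2 fold change 0.022). Kif2c (MCAK), which depolymerizes microtubules, had log2 fold changes of 0.17 and 0.19 with overlap at both stages. Nusap1 was 909 and 1030 in NC, against 1039 and 1544 in KD libraries of blastocysts. KD replicate 1 there nearly equalled NC replicate 2, and KD replicate 2 stood apart (log2 fold change 0.39, 95% interval -0.087 to 0.86, limma adjusted p = 0.372).

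The central spindle and cytokinesis genes were the role group with the most members below NC in KD morulae. All 5 had log2 fold changes below 0, with a median of -0.26, and 4 had both KD values below both NC values, where 21.2% of all genes did. None passed. The trophectoderm keratins Krt8 (log2 fold change -0.36, limma adjusted p = 0.436) and Krt18 (-0.43, limma adjusted p = 0.377) also had both KD values below NC in morulae. The trophectoderm markers Gata3 (log2 fold change 0.41), Cdx2 (0.095) and Tead4 (-0.034) overlapped between KD and NC there. The part of these markers was not tested. Anln (anillin), which organizes the contractile ring, was 4003 and 3833 in NC, against 2696 and 3172 in KD libraries of morulae, or 3918 ± 120 in NC and 2934 ± 337 in KD (SD, n = 2 each). The groups did not overlap (log2 fold change -0.42, 95% interval -0.74 to -0.10, limma adjusted p = 0.403, unadjusted p = 0.017). Ect2, the activator of RHOA at the division site, was 1285 and 1377 in NC, against 1038 and 1116 in KD libraries of morulae (log2 fold change -0.31, 95% interval -0.65 to 0.042, limma adjusted p = 0.538). Prc1, which bundles the central spindle, was 3580 and 4224 in NC and 2988 and 3531 in KD (log2 fold change -0.26, 95% interval -0.61 to 0.10, limma adjusted p = 0.6), and 11.1% of its merged exon bases overlap Rccd1 on the opposite strand. Kif20a, a motor of the central spindle, was 3648 and 4067 in NC and 3336 and 3377 in KD (log2 fold change -0.20, 95% interval -0.49 to 0.093, limma adjusted p = 0.626). It shares 29.3% of its merged exon bases with Cdc23 on the opposite strand, whose morula values were 1355 and 1273 in NC and 1727 and 1517 in KD. Kif23, the motor of centralspindlin, was 3419 and 4192 in NC and 3411 and 3972 in KD and overlapped (log2 fold change -0.040).

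In blastocysts KD and NC overlapped for all of the same 5 genes, where 49.5% of all tested genes did not overlap. Their median log2 fold change was 0.050. Anln was 3852 and 4592 in NC and 3620 and 4880 in KD (log2 fold change -0.0010, 95% interval -0.38 to 0.38, limma adjusted p = 0.999), and its lowest and highest libraries were both KD. Prc1 was 3666 and 4281 in NC and 4160 and 4985 in KD (log2 fold change 0.20, 95% interval -0.10 to 0.50) and Ect2 was 1755 and 1597 in NC and 1705 and 1662 in KD (0.0079, 95% interval -0.25 to 0.27). Top2a, the topoisomerase that untangles sister chromatids, was 5423 and 6769 in NC, against 6498 and 8494 in KD libraries of blastocysts (log2 fold change 0.29, 95% interval -0.082 to 0.67, limma adjusted p = 0.389). In morulae it was 4770 and 4221 in NC and 4447 and 5044 in KD (log2 fold change 0.078, 95% interval -0.23 to 0.39, limma adjusted p = 0.882).

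The KD change was compared between stages in a joint limma model of the 8 libraries, taking the log2 fold change in blastocysts minus that in morulae. No member passed, and neither did any of the 12875 genes tested (0% called). At an unadjusted p under 0.05 there was 1 member, Spc24, against 5.34% of genes. Its difference was below 0, as for 2.62% of genes, where 2.72% were above. For Spc24 it was -0.40 (95% interval -0.79 to -0.0059, limma adjusted p = 0.918). Prc1 differed by 0.46 (95% interval -0.0071 to 0.93), Aurka by 0.31 (-0.033 to 0.65) and Ect2 by 0.31 (-0.060 to 0.69), each with a limma adjusted p of 0.921. The difference was above 0 for 31 of 36 members, against 51% of genes, with a median of 0.14 against 0.0093. With quantile normalization it was above 0 for 26 members (72.2%, against 49.9% of genes). Without KD blastocyst replicate 2 the median was 0.066 with 25 above 0, and without KD blastocyst replicate 1 it was 0.27 with 32 above 0.

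The other mitosis genes were a list of 138 in 6 groups, of which 135 were tested at each stage. Ccna1 was not listed, and Ccnb3 and Fbxo43, both known from meiosis, were too low or not listed. None passed at either stage. At an unadjusted p under 0.05 there were 6 in morulae (4.44% against 10.4% of genes) and 14 in blastocysts (10.4% against 17.6%). Their median log2 fold change was -0.032 in morulae and 0.056 in blastocysts, and the share above 0 was 45.9% and 60.7%. By group, the blastocyst median was 0.032 for 17 tested APC/C genes, 0.066 for 18 of mitotic entry and its transcription, 0.091 for 37 of the inner kinetochore, centromere loading and checkpoint, 0.067 for 11 condensin and chromosome surface genes, 0.022 for 26 of the centrosome and 0.096 for 26 further spindle and cytokinesis genes. In morulae the group medians were -0.12 for APC/C, 0.043 for mitotic entry, -0.049 for inner kinetochore, -0.074 for condensin, -0.014 for centrosome and -0.011 for further spindle genes. Above 0 lay 6 of 17, 12 of 18, 17 of 37, 2 of 11, 12 of 26 and 13 of 26 genes in that order, where 49.2% of all genes did.

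In blastocysts KD libraries were clear of NC for 65 of the 135 tested genes of this list (48.1%, against 49.5% of all genes). The 6 with the smallest p were among them, which a choice by p favours. Mad2l1bp, which takes MAD2 off its complexes, was 1025 and 919 in NC and 1500 and 1365 in KD (log2 fold change 0.56, 95% interval 0.26 to 0.86, limma adjusted p = 0.116). Cit (citron kinase), of the cytokinetic bridge, was 1125 and 1260 in NC and 1695 and 1703 in KD (log2 fold change 0.51, 95% interval 0.24 to 0.79, limma adjusted p = 0.116). Mybl2 (B-MYB), the partner of MuvB at the CHR, was 12201 and 11063 in NC and 9316 and 8646 in KD (log2 fold change -0.37, 95% interval -0.58 to -0.16, limma adjusted p = 0.124). Hjurp, the chaperone that loads CENPA, was 3698 and 3867 in NC and 2945 and 2988 in KD (log2 fold change -0.35, 95% interval -0.56 to -0.14), below NC where Cenpa itself lay above. Kif2a, a microtubule depolymerase, was 1334 and 1296 in NC and 977 and 951 in KD (log2 fold change -0.45), and the centriole gene Cep135 was 159 and 226 in NC and 78.6 and 98.7 in KD (log2 fold change -1.10, 95% interval -1.82 to -0.38). These last 3 had adjusted p of 0.14, 0.14 and 0.154 in limma.

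In morulae the smallest p belonged to Cenpo, of the inner kinetochore, at 330 and 399 in NC and 226 and 226 in KD (log2 fold change -0.68, 95% interval -1.22 to -0.14, limma adjusted p = 0.425). Zw10, which brings dynein to kinetochores, was 798 and 545 in NC and 1119 and 893 in KD (log2 fold change 0.60, 95% interval 0.036 to 1.16, limma adjusted p = 0.468), and Mad1l1, the kinetochore anchor of MAD2, was 795 and 813 in NC and 1007 and 1062 in KD (log2 fold change 0.36). Tubgcp6, of the gamma-tubulin ring complex, was 717 and 534 in NC and 863 and 871 in KD (log2 fold change 0.49). Below NC lay the cytokinesis kinesin Kif20b, at 1670 and 1276 in NC and 943 and 1166 in KD (-0.48), and the condensin II subunit Ncapg2, at 852 and 844 in NC and 598 and 688 in KD (-0.40). Their limma adjusted p ran from 0.475 to 0.481.

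In mm10 (GENCODE vM21) all 36 members are protein-coding genes, spread over many chromosomes. The 6 members whose windows are printed above are Ube2c (ENSMUSG00000001403; chromosome 2, 164769898 to 164778822, plus strand), Aurka (ENSMUSG00000027496; chromosome 2, 172356190 to 172370535, minus strand), Cenpa (ENSMUSG00000029177; chromosome 5, 30666777 to 30674830, plus strand), Anln (ENSMUSG00000036777; chromosome 9, 22332012 to 22389188, minus strand), Pttg1 (ENSMUSG00000020415; chromosome 11, 43420250 to 43426251, minus strand) and Cenpf (ENSMUSG00000026605; chromosome 1, 189640606 to 189688086, minus strand). Ccnb2 has a processed pseudogene, Ccnb2-ps, with a mean of 16.2 in morulae and 21.0 in blastocysts, so part of its reads could have been assigned there. The labels do not say whether the authors' counting used strand, so reads in the exons shared with genes on the opposite strand cannot be told apart.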

How the data were processed

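Gene-level values were read from 2 tables that the authors deposited, 1 per stage, with 4 libraries each. The values are a signal, called normalized abundance by the authors, and the tools named, per the submitters' processing notes, are DESeq2 and Salmon 0.14.1, with the build mm10. The sources used here do not say what each tool did. Column sums within a table are nearly equal (17151880 to 17823304 in morulae, 18896774 to 19247880 in blastocysts), so values are comparable within a table only. Values of genes found in 1 library were whole multiples of a step in 97.5% to 100% of cases (tolerance 0.01), which gave the estimated depths, but low values found in all 4 libraries were whole in 5.39% to 23.7%. Whole reads were therefore not recovered, no count test was run, and errors come from the variation between libraries.

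Ensembl IDs matched a symbol in 98.9% of rows of each table. Rows with a mean of at least 10 (13404 and 13651) entered limma 3.58.1 (R 4.3.3, moderated by a mean-variance trend) on the log2(value + 1) scale, KD against NC, with Benjamini-Hochberg adjustment over all rows and a threshold of 0.05. Fold changes on the log2(value + 1) scale understate changes of low genes. An exact permutation test of 1 gene could not go under a two-sided p of 0.333 with these group sizes. The fit was tested on simulated data. Alternatives were quantile normalization, a pseudocount of 0.5 or 10, no filter, no trend, a replicate block, 1 fit of all 8 libraries and leaving out each library.

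The members and gene lists were chosen with earlier results of these data known. All 36 members are named, with Smarca5 and, per stage, the 6 other mitosis genes of smallest p. Other genes are named only as markers or as exon neighbours of a member, and these neighbours were chosen after the annotation was compared. No 2 libraries held identical values. The knockdown target and the markers were examined as checks.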

Additional observations from a re-analysis of the deposited data

How the results depend on the processing

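The count of 0 called members held at both stages, and for the difference between stages, under quantile normalization, pseudocounts of 0.5 and 10, no filter, no trend and each library left out, and at each stage in 1 fit of all 8 libraries. It did not hold under the replicate block. With the replicate number as a block, 1 member was called in morulae (Anln, lower) and 4 in blastocysts (Ube2c, Aurka, Cenpe and Top2a, higher), with 1 and 10 of the other mitosis genes. Over all genes the block called 892 in morulae and 1208 in blastocysts, against 1 and 12 without it. The labels do not say that a number pairs libraries, and the deviations of same-numbered libraries correlated at 0.297 in morulae and 0.146 in blastocysts across genes. The median log2 fold change of the members in morulae was 0.0045 with quantile normalization and -0.065 to -0.0077 with 1 library left out. In blastocysts that range was 0.044 to 0.17. Over all genes, limma called 27 in blastocysts with no filter and 1 to 3 with 1 library left out, and 18 in morulae and 15 in blastocysts in 1 fit of all 8 libraries. Without a trend it called 0 at either stage, Smarca5 not excepted. The cause of these shifts was not tested.

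The sign of 34 fold changes depended on which library was left out, and that of Cenpf in blastocysts, -0.33 with all libraries, was among them. With quantile normalization the morula log2 fold change was 0.0028 for Bub1, 0.036 for Mad2l1, 0.016 for Cenpa and 0.0061 for Tpx2. With 1 library left out, the lone library of its group being assumed to vary like the other group, the log2 fold changes that took both signs ranged in morulae as Aurka -0.037 to 0.094, Bub1 -0.18 to 0.12, Bub3 -0.17 to 0.059, Cdc20 -0.17 to 0.11, Cdk1 -0.22 to 0.25, Cenpa -0.24 to 0.17, Cenpe -0.21 to 0.062, Incenp -0.020 to 0.10, Kif23 -0.19 to 0.11, Mad2l1 -0.17 to 0.16, Ndc80 -0.17 to 0.062, Nuf2 -0.0026 to 0.25, Nusap1 -0.23 to 0.12, Plk1 -0.00091 to 0.31, Spc25 -0.17 to 0.28, Top2a -0.013 to 0.17, Tpx2 -0.10 to 0.034, Ttk -0.11 to 0.19 and Ube2c -0.33 to 0.35. In blastocysts they ranged as Anln -0.22 to 0.21, Aurkb -0.20 to 0.085, Bub1 -0.23 to 0.11, Bub3 -0.022 to 0.30, Ccnb2 -0.056 to 0.18, Cdc20 -0.080 to 0.17, Cenpf -0.74 to 0.084, Ect2 -0.060 to 0.076, Kif11 -0.13 to 0.17, Kif20a -0.031 to 0.22, Kif23 -0.019 to 0.12, Ndc80 -0.19 to 0.24, Pttg1 -0.071 to 0.23, Tpx2 -0.13 to 0.18 and Ttk -0.12 to 0.0076. The effect of depth on the calls was not tested.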
